A study of Mus musculus with 8 samples.

Results

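The dystrophin-glycoprotein complex was followed through 8 of its genes, Dmd, Utrn, Dag1, Sgca, Sgcb, Sgcd, Dtna and Sspn, chosen by gene symbol from the 33249 genes of the deposited table and read in all 8 libraries. The libraries were poly(A) RNA sequencing of mouse myocardium, with 2 libraries in each of 4 groups. The groups were Piezo1 fl/fl mice after a sham operation (fl/fl-Sham), Piezo1 CKO mice after a sham operation (CKO-Sham), fl/fl mice after myocardial infarction (fl/fl-MI) and CKO mice after myocardial infarction (CKO-MI). All mice carried loxP-flanked Piezo1, which encodes a mechanically gated cation channel. CKO mice also carried a tamoxifen-inducible Cre under the Myh6 promoter, which is active in cardiomyocytes, so other heart cells kept the gene, and the effect of Cre and of the deletion cannot be told apart. The fl/fl mice were littermates without the transgene. Tamoxifen was given at 4 weeks of age to induce the deletion, and surgery followed at 8 weeks. The sources used here do not say whether fl/fl mice also received tamoxifen. Infarction was made by tying off the left anterior descending artery for good, and infarcted hearts were taken on day 42, in week 6, while the labels give no day for sham hearts.

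Dystrophin, the product of Dmd, ties cortical actin to the muscle membrane, and utrophin (Utrn) is its autosomal relative. Both bind beta-dystroglycan, which is cut from the Dag1 product together with alpha-dystroglycan, the subunit that binds laminin outside the cell once its sugar chains have been built. The sarcoglycans (Sgca, Sgcb, Sgcd) and sarcospan (Sspn) form a membrane subcomplex beside dystroglycan, and alpha-dystrobrevin (Dtna) joins from the inside and carries the syntrophins. Loss of dystrophin or of some of the sarcoglycans can cause muscular dystrophy and cardiomyopathy, in which the cardiomyocyte membrane tears under load.

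A set of 4 promoter windows is shown because they stand before the leading transcripts of Dmd, Dag1 and Sspn, which were higher after infarction, and before an alternative start of Dmd. Windows free of exon bases were found for 5 of the 8 genes. Each run is the 150 bases before a RefSeq start site (GRCm38.p6), written 5′ to 3′ on the strand of the gene, and none of them holds an annotated exon. Capitals mark matches on either strand to the CArG box, the MEF2 site, the E box with letters CANNTG, the GC box with letters GGGCGG, the CCAAT box, the M-CAT element with letters CATTCC or the N box with letters CCGGAA.
Dmd full-length start, chrX:82948720-82948869, plus strand: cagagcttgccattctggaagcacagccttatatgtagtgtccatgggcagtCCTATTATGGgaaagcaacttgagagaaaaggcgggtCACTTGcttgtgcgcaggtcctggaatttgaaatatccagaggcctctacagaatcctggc
Dmd short start, chrX:85048145-85048294, plus strand: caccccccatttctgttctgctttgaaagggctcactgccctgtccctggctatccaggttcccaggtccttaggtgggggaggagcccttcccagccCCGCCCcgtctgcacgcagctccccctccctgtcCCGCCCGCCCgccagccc
Dag1, chr9:108263959-108264108, minus strand: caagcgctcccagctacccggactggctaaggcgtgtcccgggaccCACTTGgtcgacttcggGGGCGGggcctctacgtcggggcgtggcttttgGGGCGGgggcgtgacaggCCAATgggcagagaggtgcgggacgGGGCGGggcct
Sspn, chr6:145933972-145934121, plus strand: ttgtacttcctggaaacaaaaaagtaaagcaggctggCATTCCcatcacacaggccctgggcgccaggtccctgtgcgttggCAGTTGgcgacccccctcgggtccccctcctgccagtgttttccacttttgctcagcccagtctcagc
The window before full-length Dmd held 1 CArG box, which begins 98 bases before the RefSeq start site, and 1 E box. The full-length transcript starts 33 bases after that site, and the short one 118 bases after its own. Forms annotated as retained introns start at both sites. A CArG box was present in 0.916% of the 32851 promoter windows of this length, and an E box in 47.7%. The window before the short Dmd transcript held no CArG box and 3 GC boxes, of which the last pair overlap, and its GC content was 68.7% against 49.3% for the full-length start. The Dag1 window held 3 GC boxes, 1 CCAAT box and 1 E box, and the Sspn window 1 E box and 1 M-CAT element. GC boxes occurred in 28.6% of all windows, CCAAT boxes in 24.5% and M-CAT elements in 7.59%. No MEF2 site (0.332% of windows) or N box (9.23%) was found in these windows. The matches describe the letters only.

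Total estimated counts ranged from 73821747 to 88117573 per library. The share of mitochondrially encoded genes was 43.1% to 46.4% under sham and 19.9% to 24.2% under MI, so a change in a nuclear gene depends on how libraries are scaled. Levels are therefore given as CPM scaled by trimmed mean of M values (TMM), under which the median gene moved by 0.03 on the log2 scale between MI and sham. One library stood apart. In fl/fl-MI 2 the atrial markers Sln, Myl7, Myl4 and Bmp10 were at 309.7, 1157, 2810 and 3834 CPM, whereas none of them passed 12.6 CPM in the other MI libraries or 48.0 CPM in sham libraries, so the members' MI results are also given without it. Nppa, an atrial marker that stressed ventricles also make, was at 11746 CPM in fl/fl-MI 2, 2520 to 4419 CPM in the other MI libraries and at most 503.7 CPM under sham. The ventricular marker Myl2 was lowest in fl/fl-MI 2 at 801 CPM, against 1625 to 2771 CPM in the other MI libraries and 3595 to 4227 CPM under sham. Myh6, which mouse atria also express, was highest in fl/fl-MI 2 at 18609 CPM and lowest in fl/fl-MI 1 at 4976 CPM. Piezo1 itself ran from 53.5 to 82.0 CPM in fl/fl libraries and from 56.3 to 88.3 CPM in the libraries labelled CKO. The gene counts do not separate the deleted exons or the cell types, so they do not check the genotype labels.

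All 8 genes passed the filter on low values, a mean of at least 0.5 FPKM (fragments scaled by feature length and library size) over the 8 libraries, which left 14028 genes in all. Per length, in the gene table, Sgca was the most abundant member in sham hearts at 25.3 ± 5.02 FPKM (SD, n = 4). Sgcb at 16.6 ± 1.69 and Dag1 at 16.1 ± 1.59 FPKM followed with overlapping ranges, then Sspn at 10.05 ± 0.877 FPKM. Utrn, at 4.43 ± 0.283 FPKM, stood above Dmd at 1.41 ± 0.0679, Dtna at 1.28 ± 0.0951 and Sgcd at 0.424 ± 0.0232 FPKM, and only Dmd and Dtna overlapped among these 4. In MI hearts the order changed at the top. Dag1 led at 58.9 ± 2.503 FPKM, and Sspn at 37.7 ± 3.49, Sgcb at 35.8 ± 2.21 and Sgca at 30.4 ± 6.54 FPKM followed, each overlapping the next. Utrn at 6.80 ± 0.902, Dmd at 4.78 ± 1.14 and Dtna at 3.76 ± 0.772 FPKM also overlapped in turn, and Sgcd was lowest at 2.04 ± 0.567 FPKM.

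The lower order depended on the length by which counts are divided, because the gene table divides by a long gene model. When FPKM were summed over each gene's transcripts, Utrn was at 6.28 ± 0.387, Dtna at 4.94 ± 0.304, Dmd at 3.83 ± 1.51 and Sgcd at 2.15 ± 0.165 FPKM in sham hearts. In MI hearts Dtna then stood at 16.1 ± 3.33, Sgcd at 10.4 ± 2.87, Utrn at 9.71 ± 1.34 and Dmd at 7.97 ± 2.004 FPKM, with overlapping ranges between neighbours. Dag1 was the most abundant member after infarction by either length.

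The first comparison asked which complex genes differed between infarcted and sham hearts with both genotypes pooled. Of the 8, 6 genes, Sgcd, Sspn, Dag1, Dmd, Dtna and Sgcb, were higher after infarction by edgeR's quasi-likelihood test at a Benjamini-Hochberg adjusted p under 0.05, and none was lower. Over all 14028 genes tested, 40.4% were called in this comparison and 22.0% were called higher. The median log2 fold change was 1.06 over the 8 genes and 0.03 over all genes. The same 6 genes lay above every sham library in all 4 MI libraries, as did 20.9% of tested genes. DESeq2 also called 6 of 8, and 46.2% of genes. Without fl/fl-MI 2 edgeR called 6 of 8, and 50.7% of genes. In bulk tissue, fewer cells of a type and less RNA per cell cannot be told apart.

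**Figure D1:**
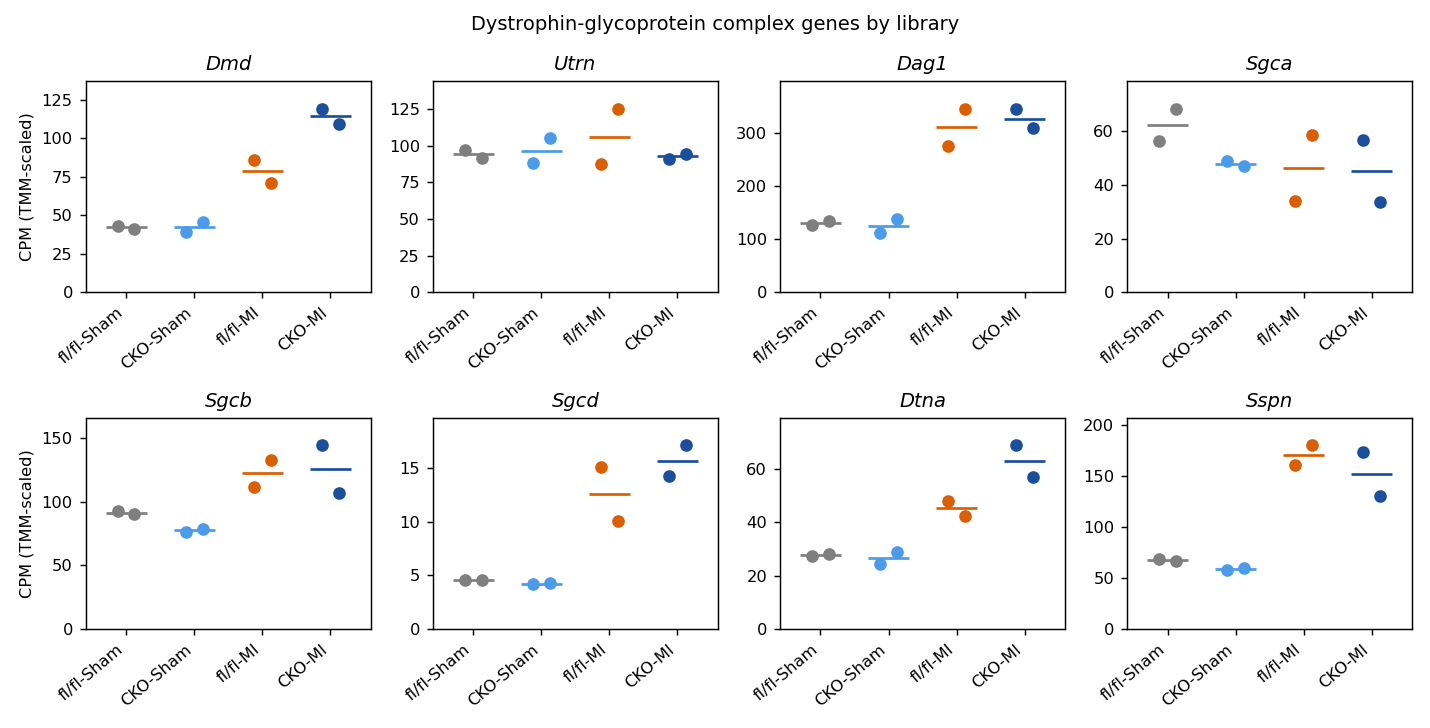
TMM-scaled CPM of each of the 8 complex genes in the 8 libraries, 1 panel per gene with its own axis from 0; points are libraries and lines group means. Sgcd, Sspn, Dag1, Dmd, Dtna and Sgcb lie higher in all MI libraries than in any sham library, whereas Utrn and Sgca overlap, and Dmd spans 39.5 to 45.6 CPM in sham and 71.0 to 119.3 CPM in MI libraries.

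Dmd, the actin-binding scaffold of the complex, lies on chromosome X from 82948870 to 85206141 on the plus strand. Its level was 43.3 and 41.2 CPM in the fl/fl-Sham libraries, 39.5 and 45.6 in CKO-Sham, 86.3 and 71.0 in fl/fl-MI and 119.3 and 109.2 in CKO-MI. The 4 sham values lay close together, both fl/fl-MI values lay above them, and both CKO-MI values lay above those. The fitted log2 fold change, MI against sham, was 1.16 ± 0.11 (SE), or 2.23-fold, with an adjusted p of 0.000751 by edgeR, and 1.23 without fl/fl-MI 2.

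Utrn is the relative of dystrophin that is known to take its place at the membrane in dystrophic muscle. The gene table places Utrn on chromosome 10 from 12382188 to 12868281 on the minus strand, and the GENCODE M21 annotation extends it to 12869365. It was at 97.3 and 91.3 CPM in fl/fl-Sham, 88.0 and 105.2 in CKO-Sham, 87.1 and 125.1 in fl/fl-MI and 91.2 and 94.1 in CKO-MI. The groups overlapped, and the highest value was that of fl/fl-MI 2, the library with the atrial markers. The log2 fold change was 0.05 ± 0.14 with a 95% interval from -0.27 to 0.38 (edgeR adjusted p = 0.775), and -0.09 without that library. Scaled as FPKM, where mitochondrial counts enter the total and the median gene moved by 0.41, the Utrn difference was 0.52 with an adjusted p of 0.0074 by limma.

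Dag1, which encodes both dystroglycans, lies on chromosome 9 from 108204634 to 108263958 on the minus strand. It rose from 127.6 and 135.4 CPM in fl/fl-Sham and 111.6 and 139.2 in CKO-Sham to 276.5 and 346.8 in fl/fl-MI and 346.4 and 309.9 in CKO-MI. Every MI library was well above every sham library. The log2 fold change was 1.32 ± 0.13, or 2.49-fold (edgeR adjusted p = 0.000908), and 1.23 without fl/fl-MI 2.

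The 3 sarcoglycan genes did not move alike. Sgcd (delta-sarcoglycan, chromosome 11 from 46896253 to 47988969, minus strand) was the least abundant member per length in the gene table and had the largest fold of the 8. It was at 4.62 and 4.57 CPM in fl/fl-Sham, 4.24 and 4.26 in CKO-Sham, 15.1 and 10.1 in fl/fl-MI and 14.3 and 17.1 in CKO-MI. The sham values were nearly level and every MI value lay far above them. Its log2 fold change was 1.67 ± 0.17, or 3.19-fold (edgeR adjusted p = 0.000953), and 1.80 without fl/fl-MI 2. Its change exceeded that of 97.2% of tested genes.

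Sgcb (beta-sarcoglycan, chromosome 5 from 73632749 to 73647790, minus strand) was at 92.4 and 90.7 CPM in fl/fl-Sham, 76.6 and 78.3 in CKO-Sham, 112.0 and 133.1 in fl/fl-MI and 144.4 and 106.8 in CKO-MI. Sham and MI libraries did not overlap, but the rise was smaller, with a log2 fold change of 0.56 ± 0.13, or 1.47-fold (edgeR adjusted p = 0.0132), and 0.49 without fl/fl-MI 2. The call was lost when fl/fl-Sham 1, fl/fl-Sham 2 or CKO-Sham 1 was left out, with adjusted p of 0.0544, 0.0606 and 0.0584 by edgeR.

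Sgca (alpha-sarcoglycan, chromosome 11 from 94962791 to 94976327, minus strand) was at 56.4 and 68.4 CPM in fl/fl-Sham, 48.8 and 47.0 in CKO-Sham, 34.0 and 58.6 in fl/fl-MI and 56.6 and 33.6 in CKO-MI. Libraries of the same MI group differed by more than the groups did. The fitted log2 difference was -0.26 ± 0.23, with a 95% interval from -0.79 to 0.27 (edgeR adjusted p = 0.39). It was -0.48 without fl/fl-MI 2 (adjusted p = 0.0652), and its sign turned with scaling, to 0.25 as FPKM (limma adjusted p = 0.267) and to 0.81 as TPM, where the median gene moved by 0.92 (limma adjusted p = 0.00316).

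Sspn encodes sarcospan, the small tetraspanning member of the subcomplex, on chromosome 6 from 145931641 to 145965223 on the plus strand. It was at 68.5 and 66.8 CPM in fl/fl-Sham, 57.5 and 59.8 in CKO-Sham, 160.7 and 180.1 in fl/fl-MI and 173.5 and 130.03 in CKO-MI. Every MI value was above every sham value. The log2 fold change was 1.35 ± 0.12, or 2.55-fold (edgeR adjusted p = 0.000726), and 1.31 without fl/fl-MI 2. In the GENCODE M21 annotation 69 exonic bases of Sspn are shared with the antisense gene Sspnos, and how strand was used in the counting is not given in the sources used here, so reads there cannot be told apart.

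Dtna, the alpha-dystrobrevin gene on chromosome 18, was at 27.6 and 28.3 CPM in fl/fl-Sham, 24.5 and 28.9 in CKO-Sham, 48.1 and 42.4 in fl/fl-MI and 68.9 and 57.0 in CKO-MI. As for Dmd, both CKO-MI values were above both fl/fl-MI values, which were above all sham values. The log2 fold change was 0.97 ± 0.11, or 1.96-fold (edgeR adjusted p = 0.00122), and 1.01 without fl/fl-MI 2. Its exons share 90 bases with the antisense gene Gm47898.

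A further 3 measurements moved with these differences, and their part in them was not tested. The first was cell type markers. Fibroblast markers were higher after MI for 7 of 7 genes, from a summed 1406 to 1551 CPM in sham libraries to 2218 to 6406 CPM. Endothelial markers were lower for 6 of 6, from 1571 to 1740 CPM down to 493 to 731 CPM. Cardiomyocyte markers were mixed, with 3 of 8 higher, 2 lower and sums of 31105 to 35508 CPM in sham and 20159 to 45650 CPM in MI libraries. Macrophage markers were higher for 3 of 6, from 402 to 439 CPM to 395 to 1004 CPM. Of 6 smooth muscle and pericyte markers 2 were lower, of 3 skeletal muscle markers tested 1, of 4 Schwann cell markers 2 and of 4 adipocyte markers 1, and none of these was higher. Among defining markers the skeletal muscle myosin Myh4 did not pass 0.17 FPKM in any library. Of the 5 atrial markers 1, Nppa, was called higher.

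The second was transcript length. Among tested genes up to 1000 bases long, weighted by transcript abundance, the median log2 fold change was -0.38 and 5.61% were called higher, whereas among the 1064 genes of 6000 to 10000 bases the median was 0.29 and 37.6% were called higher. Dmd (12482 bases) and Utrn (12008 bases) had log2 fold changes of 1.16 and 0.05, in a class over 10000 bases where 36.7% were called higher. Dag1, Sspn and Dtna, at 1.32, 1.35 and 0.97, fell in the class of 4000 to 6000 bases, where 33.1% were called higher. Sgcb, at 0.56, fell in the class of 2000 to 4000 bases, where the median was 0.099. Sgcd (1622 bases) and Sgca (1470 bases) fell in one length class, where 12.9% of genes were called higher, and had 1.67 and -0.26. The third was the mitochondrial share given above. With mitochondrially encoded genes removed before scaling, 6 of 8 members were called, as were 39.9% of genes.

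Ratios within a library do not depend on scaling between libraries. The FPKM ratio of Utrn to Dmd was 3.12 and 3.09 in fl/fl-Sham, 3.10 and 3.21 in CKO-Sham, 1.40 and 2.45 in fl/fl-MI and 1.06 and 1.20 in CKO-MI. Sham ratios from the gene table were nearly constant and all 4 MI ratios lay below them. The mean log2 ratio was 1.65 ± 0.03 in sham and 0.53 ± 0.53 in MI libraries (SD, n = 4 each), a drop by 1.11, or 2.16-fold. The exact two-sided permutation test over libraries gave p = 0.0286, the smallest that 70 assignments allow. The difference was -1.37 without fl/fl-MI 2, where p could not go below 0.0571 in the exact test.

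Ratios of the other members to Dmd, also from the gene table, are descriptions. Sgca to Dmd ran from 14.1 to 22.8 in sham and from 4.22 to 11.3 in MI libraries, and Sgcb to Dmd from 10.1 to 13.0 and from 5.75 to 11.02. Dtna to Dmd was at 0.869 to 0.965 in sham and 0.734 to 0.839 in MI libraries. Dag1 to Dmd, at 10.6 to 12.3 in sham and 10.6 to 18.3 in MI, and Sspn to Dmd, at 6.26 to 7.74 and 5.68 to 12.1, overlapped between sham and MI. Sgcd to Dmd was the only ratio of the 7 above the sham range in all 4 MI libraries, at 0.345 to 0.505 against 0.269 to 0.320.

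**Figure D2:**
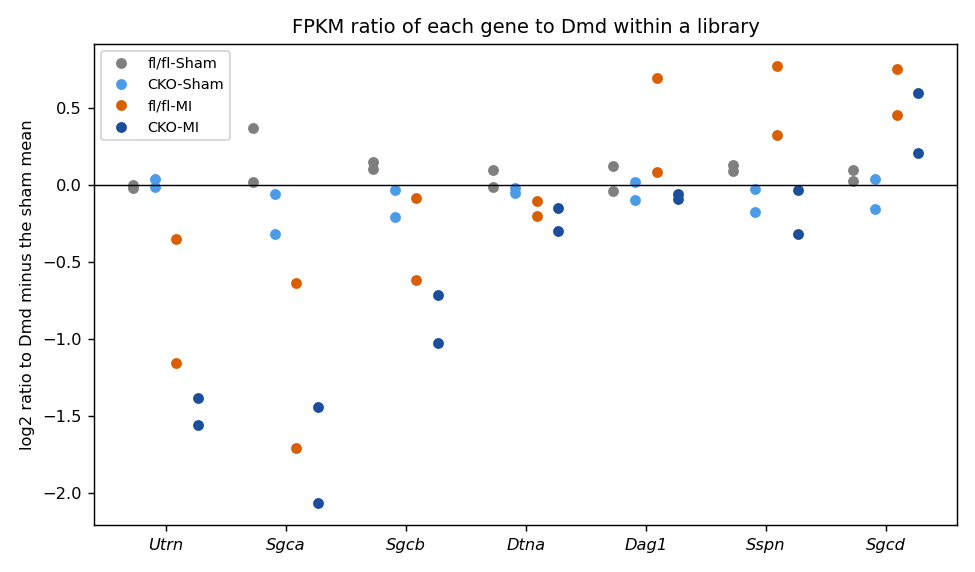
Log2 of the gene-table FPKM ratio of 7 complex genes to Dmd within each library, minus its mean over the sham libraries. Points are libraries, colored by group. Utrn, Sgca, Sgcb and Dtna lie below 0 in every MI library, and Sgcd lies above 0 in every MI library. The Utrn ratio runs from 3.09 to 3.21 in sham and from 1.06 to 2.45 in MI libraries. The Dtna ratio runs from 0.869 to 0.965 in sham and from 0.734 to 0.839 in MI libraries.

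The infarction effect was next fitted within each genotype. These comparisons share their libraries with the pooled one and with the genotype comparisons, so the values stand side by side and are not independent. In fl/fl hearts 5 of 8 members were higher (18.5% of all genes called, 10.1% higher), with log2 fold changes of 1.46 ± 0.24 for Sgcd, 1.33 ± 0.17 for Sspn, 1.24 ± 0.19 for Dag1, 0.90 ± 0.15 for Dmd and 0.70 ± 0.16 for Dtna. Their edgeR adjusted p ran from 0.00635 to 0.0268. Sgcb was at 0.42 ± 0.18 (edgeR adjusted p = 0.14), Utrn at 0.17 ± 0.20 and Sgca at -0.43 ± 0.32. All 5 calls were lost when fl/fl-Sham 1 or fl/fl-Sham 2 was left out, where 0.898% and 0.848% of genes were called. No member was called when only the 4 fl/fl libraries were fitted (1.42% of genes), where the log2 fold changes of these 5 were 0.66 to 1.42. Without fl/fl-MI 2 the count was 5 of 8, with 29.5% of genes called and Sgca at -0.88 (edgeR adjusted p = 0.0616).

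In the hearts labelled CKO, 6 of 8 were higher after infarction (24.7% of all genes called, 12.8% higher). The log2 fold changes were 1.89 ± 0.24 for Sgcd, 1.43 ± 0.16 for Dmd, 1.39 ± 0.19 for Dag1, 1.37 ± 0.17 for Sspn, 1.24 ± 0.16 for Dtna and 0.70 ± 0.18 for Sgcb. Their edgeR adjusted p ran from 0.00423 to 0.0322. Utrn at -0.06 ± 0.20 and Sgca at -0.09 ± 0.32 did not pass. All 6 calls were lost without CKO-Sham 1, where 0.178% of genes were called, these 6 values were 0.68 to 1.88 and their lowest adjusted p was 0.0573 by edgeR. Without fl/fl-MI 2 the count was 6 of 8, with 41.3% of genes called. Under the replicate number as a block Sgcb was no longer called in CKO hearts (0.0588) and Dtna no longer in fl/fl hearts (0.0508, edgeR adjusted p).

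**Figure D3:**
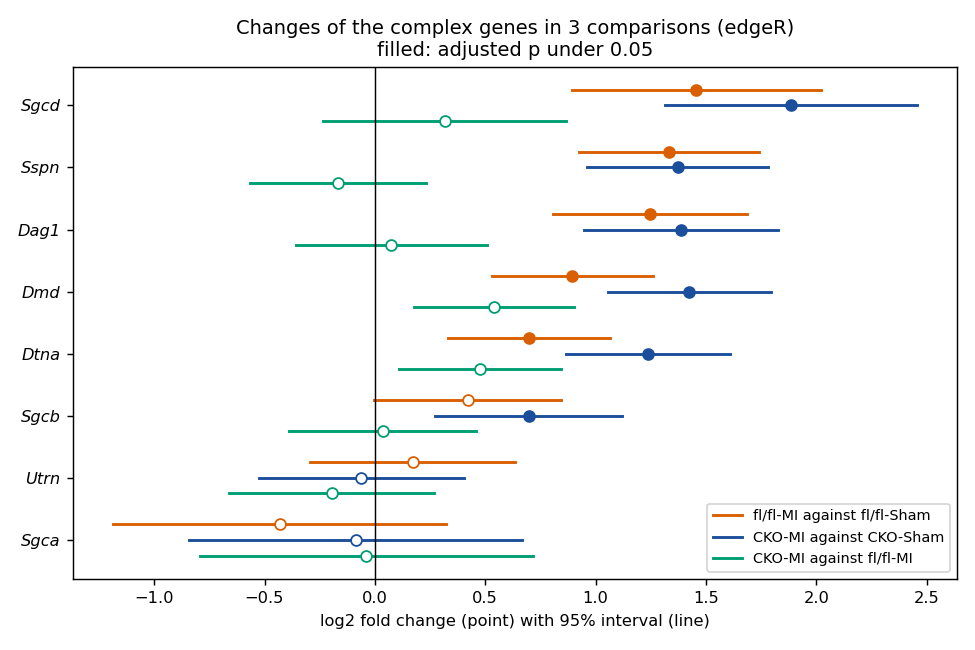
Log2 fold change of the 8 complex genes in 3 comparisons (points, filled where the edgeR adjusted p is under 0.05) with 95% intervals (lines). The estimated infarction effects of the upper 6 genes lie above 0 in both genotypes, the intervals of Utrn and Sgca in both genotypes and of Sgcb in fl/fl hearts include 0, and for CKO-MI against fl/fl-MI only the intervals of Dmd (0.18 to 0.90) and Dtna (0.11 to 0.84) leave out 0, with no call.

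The study turned on whether infarcted hearts differ when cardiomyocyte Piezo1 is deleted. Between CKO-MI and fl/fl-MI none of the 8 genes was called by edgeR, where 0 of 14028 genes (0.0%) passed. The paper reported differentially expressed genes between these groups, most of them lower in CKO-MI, and does not name the test behind them. At an unadjusted p under 0.05, 2 members, Dmd and Dtna, were higher in CKO-MI, against 8.31% of all genes in either direction and 3.07% higher. Dmd differed by 0.54 ± 0.15 on the log2 scale with a 95% interval from 0.18 to 0.90 (edgeR adjusted p = 0.549), and Dtna by 0.48 ± 0.15 with an interval from 0.11 to 0.84 (edgeR adjusted p = 0.551). These were the 2 members whose CKO-MI libraries both lay above both fl/fl-MI libraries, as 14.5% of genes did. DESeq2 called 211 genes (1.5%) and limma 0, and neither called a member.

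This comparison depended on the infarcted fl/fl libraries. Without fl/fl-MI 1, which leaves the library with atrial markers as the lone fl/fl-MI library, Dmd was called (log2 fold change 0.70, edgeR adjusted p = 0.0312) among 1674 genes (11.9%). Without fl/fl-MI 2 no member and 27 genes (0.192%) were called. Dmd then differed by 0.41 (edgeR adjusted p = 0.365) and Dtna by 0.39 (edgeR adjusted p = 0.433), and of the 8 Dmd alone passed an unadjusted 0.05. A lone library is assumed in these fits to vary like the other groups. The remaining members had small estimates with wide intervals, such as 0.07 for Dag1 (-0.36 to 0.51), -0.17 for Sspn (-0.57 to 0.23), -0.20 for Utrn (-0.66 to 0.27) and 0.32 for Sgcd (-0.23 to 0.87). Sgcb was at 0.04 (-0.39 to 0.46) and Sgca at -0.04 (-0.79 to 0.71).

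The genotypes under sham showed no called member by edgeR, with 1 gene called among all tested (0.00713%), and 0 members and 546 genes (3.89%) at an unadjusted p under 0.05. DESeq2 called 34 genes (0.242%) and limma 2, with no member among them. Dmd was level, at 0.01 with an interval from -0.35 to 0.37, and the furthest estimate was -0.38 for Sgca (-1.13 to 0.37). The interaction, which tests whether the infarction effect differed between genotypes, also called no member and no gene by edgeR. At an unadjusted p under 0.05 it held 1191 genes (8.49%, and 3.55% higher) and 2 members. These were Dtna at 0.54 ± 0.22 (edgeR adjusted p = 0.574) and Dmd at 0.53 ± 0.22 (edgeR adjusted p = 0.577). DESeq2 called 130 genes (0.927%) and no member, and limma called none. Without fl/fl-MI 2 neither member passed the unadjusted threshold, with Dtna at 0.45 and Dmd at 0.40.

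Transcripts of the complex were read next, to see which isoforms carried these counts. The table splits reads between isoforms by estimate, so a transcript's value is less certain than its gene's. Of 55 transcripts of the 8 genes, 18 passed the filter and 8 were called between MI and sham by edgeR, 7 higher and 1 lower. Of the 26966 transcripts tested 16.9% were called, 9.35% higher and 7.52% lower.

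The full-length Dmd transcript ENSMUST00000114000, with 79 exons, is the muscle dystrophin that starts 33 bases after the first printed Dmd start site. It was at 1.05 and 1.13 FPKM in fl/fl-Sham, 2.06 and 2.27 in CKO-Sham, 7.31 and 5.12 in fl/fl-MI and 8.66 and 9.10 in CKO-MI. The estimate for MI against sham was 1.78 ± 0.12 on the log2 scale (edgeR adjusted p = 0.00732), called under all 11 alternatives run for transcripts. A short Dmd transcript of 18 exons, ENSMUST00000113991, starts 118 bases after the GC-rich site in the last part of the gene and encodes a dystrophin without the actin-binding end. It was estimated at 3.97 and 3.598 FPKM in fl/fl-Sham but at 0.0 and 0.223 in CKO-Sham, 0.202 and 0.0104 in fl/fl-MI and 0.0131 and 0.124 in CKO-MI. Both fl/fl-Sham libraries stood far above the other 6, a difference between sham genotypes for which no transcript test result is given here.

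As a share of summed Dmd FPKM, the full-length form took 20.8% and 21.7% in fl/fl-Sham, 89.2% and 82.1% in CKO-Sham and between 91.0% and 97.7% in MI libraries. The gene-level Dmd counts of the 4 sham libraries, 2542 to 2901, did not show this split. For the short form, MI against sham was not called (log2 fold change -3.47 ± 1.65, edgeR adjusted p = 0.202), and it was 0.84 without CKO-Sham 2.

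Utrn was carried by ENSMUST00000076817 (74 exons), at 3.39 to 6.62 FPKM in sham and 6.41 to 8.37 FPKM in MI libraries, and by ENSMUST00000218635 (75 exons), at 0.0199 to 2.76 and 0.740 to 3.18 FPKM. On the count scale neither was called, with log2 fold changes of 0.05 ± 0.25 and 0.52 ± 1.19. The share of the 74-exon form varied from 52.6% to 98.5% among the sham libraries alone.

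**Figure D4:**
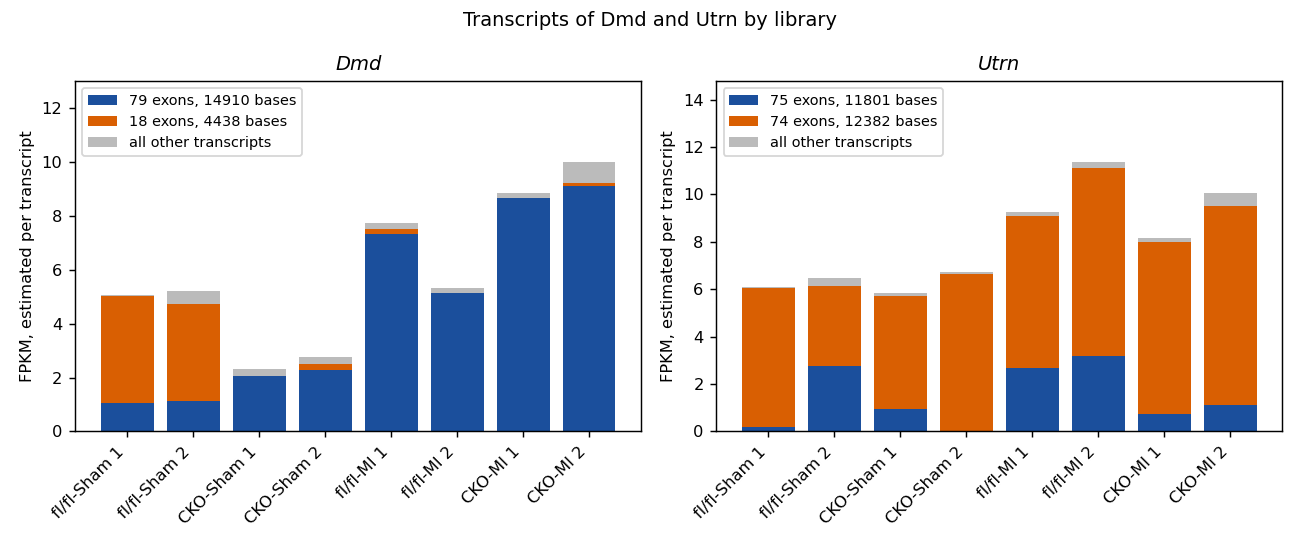
Estimated FPKM per transcript of Dmd and Utrn in the 8 libraries, as stacked bars from 0; the 2 tested transcripts of each gene are named by exon number and length and all others are in grey. For Dmd the 18-exon form is seen in the fl/fl-Sham libraries (3.97 and 3.598 FPKM) and the 79-exon form makes up at least 91.0% of every MI library; for Utrn the 74-exon form is the larger in every library.

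The other genes were each led by 1 or a few forms. Dag1 was mostly ENSMUST00000191899, the transcript at the printed Dag1 start site, at 15.7 to 19.6 FPKM in sham and 56.8 to 62.9 in MI libraries (log2 fold change 1.29 ± 0.12, edgeR adjusted p = 0.00792). Its share of Dag1 was 93.2% to 99.2% in sham and 86.0% to 87.8% in MI libraries. The forms that start further along, ENSMUST00000080435 and ENSMUST00000171412, were at no more than 0.926 and 0.385 FPKM in sham and at 5.20 to 7.54 and 0.635 to 2.16 FPKM in MI libraries. Of these the second was called (3.73 ± 0.64, edgeR adjusted p = 0.0201), a call lost in 4 of 11 alternatives, and the first was not (adjusted p = 0.0952).

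Sspn was ENSMUST00000032383, from 10.4 to 11.9 FPKM in sham to 37.1 to 45.4 in MI libraries, and Sgcb was ENSMUST00000081170, from 16.2 to 19.7 to 35.7 to 41.4 FPKM. Sgcd was ENSMUST00000077221, with 8 exons and at least 91.4% of the gene in every library, from 1.898 to 2.22 to 6.61 to 13.3 FPKM. Each was called higher, with log2 fold changes of 1.48 ± 0.14 for Sspn, 0.64 ± 0.13 for Sgcb and 1.81 ± 0.21 for Sgcd, though the Sgcb call was lost in 8 of 11 alternatives. Dtna was spread over 3 forms, of which ENSMUST00000221880 was called (1.34 ± 0.13, edgeR adjusted p = 0.00792), while ENSMUST00000047954 (1.57 ± 0.42, adjusted p = 0.057) and ENSMUST00000115832 (0.61 ± 0.22, adjusted p = 0.12) were not.

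Sgca was mainly ENSMUST00000100551, at 23.3 to 26.9 FPKM in sham and 19.6 to 30.3 in MI libraries (edgeR adjusted p = 0.26). The 2 forms that start upstream of it, ENSMUST00000103162 and ENSMUST00000166320, were at log2 fold changes of 1.31 ± 0.50 and 1.58 ± 0.52 (edgeR adjusted p = 0.129 and 0.0941). The 1 transcript called lower was a minor 5-exon Sgca form, ENSMUST00000139855, at 0.525 to 1.24 FPKM in sham and 0.0772 to 0.422 in MI libraries, called in 2 of 11 alternatives.

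The genes most like Dmd across the 8 libraries, by Pearson's r on log2 CPM, were Shroom3 (r = 0.994), Dtna (r = 0.993) and Ddx21 (r = 0.993). Dtna, a member, thus stood second among all tested genes. Nearest to Dag1 were the non-coding Gm48275, Mthfd1 and Mmgt1 (r = 0.997, 0.997 and 0.996), and nearest to Utrn were Ppfibp2 (r = 0.970), Nnat (r = 0.967) and Gm28192 (r = 0.962). The 8 points are the same libraries, 4 of them infarcted, so a gene that differs between MI and sham by a like amount has a high r.

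Other genes of the complex and its supply lines were described from 4 lists. Of 14 partner genes, 9 passed the filter, 4 were higher and 2 lower after infarction, where 40.4% of all genes were called and 22.0% were higher, with a median log2 fold change of 0.06 beside 0.03 over all genes. Sgce, the epsilon-sarcoglycan gene, was at 0.34 ± 0.10, with 0.80 in fl/fl and -0.13 in CKO hearts, and the interaction called no gene. Among the syntrophins, adaptors that bring signaling proteins to dystrophin, Sntb2 was higher (0.65 ± 0.10) and Sntb1 was at -0.25 ± 0.20. Cav3, the muscle caveolin that binds dystroglycan, and Dtnbp1, dysbindin, were lower at -0.52 ± 0.15 and -0.53 ± 0.18. As FPKM they were at 0.026 and 0.00867, without a call. Synm and Krt19, intermediate filament proteins, were at 0.06 ± 0.15 and -0.24 ± 0.18. Sntg1, Sntg2, Dtnb and Nos1 did not pass the filter, with at most 0.887 FPKM in any library, and Sgcz was not analysed here.

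Of 10 genes of laminin chains and other matrix proteins, 3 were higher and 3 lower, with a median of -0.11. Over all genes 40.4% were called and 22.0% were higher. Bgn, the proteoglycan biglycan, rose from 238 to 347 CPM in sham to 452 to 1488 in MI libraries (1.86 ± 0.38, edgeR adjusted p = 0.00874). Lamc1, the shared laminin gamma chain, rose by 0.98 ± 0.16, and Lama2, the alpha chain of muscle laminin, from 67.2 to 80.2 CPM to 89.1 to 154 CPM (0.70 ± 0.18). Agrn, agrin, and Lama5 were lower at -1.43 ± 0.11 and -1.42 ± 0.12, and Hspg2, perlecan, at -0.44 ± 0.13, which as FPKM was 0.13. Fibroblast markers were higher and endothelial markers lower in the same libraries, and their part was not tested.

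Among the enzymes that build the laminin-binding sugar of alpha-dystroglycan, 16 of 18 passed the filter, 7 were higher and none lower, where 40.4% of all genes were called and 22.0% were higher, and the median was 0.40. Among the higher were Pomgnt1 (0.74 ± 0.09), Pomt2 (0.73 ± 0.11), which starts the chain, Dolk (0.53 ± 0.13), which makes dolichol phosphate, and Rxylt1 (0.37 ± 0.11). Pomt1, the partner enzyme of Pomt2, was at 0.07 ± 0.20.

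**Figure D5:**
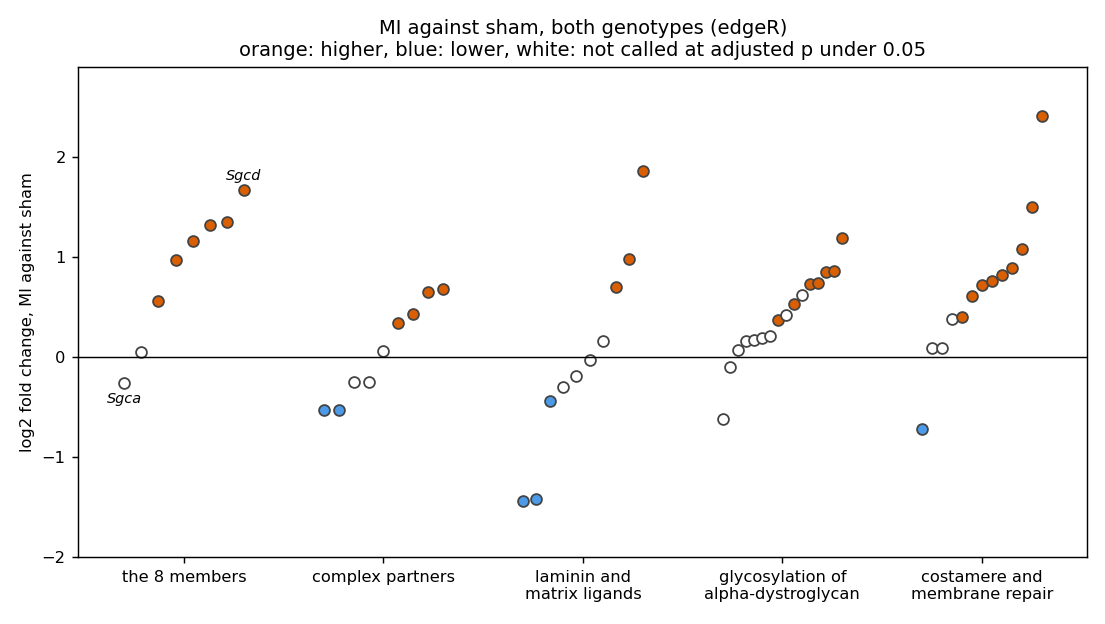
Log2 fold change, MI against sham with both genotypes, for the 8 complex genes and for the tested genes of 4 lists, sorted within each list; orange and blue mark genes called higher and lower by edgeR, white those not called. The members span -0.26 to 1.67, the laminin and matrix genes split between both directions, and the glycosylation genes hold 7 higher calls and none lower.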

How the data were processed

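RNA of mouse myocardium was sequenced as paired-end poly(A) libraries. The submitters' processing notes name cutadapt 1.9 and FastQC, and the aligner, the counting tool and its use of strand are not given in the sources used here. The authors deposited gene and transcript tables that hold FPKM and an estimated count for each library. Gene counts equal the sum of their transcripts' counts in 99.99% of values, within 1 count. Coordinates match GENCODE M21 (GRCm38) for 6 of the 8 members, all but Utrn and Dtna. Samples were grouped by their titles, 2 libraries a group. Nothing says that libraries came from separate animals, so p-values measure only the spread between these libraries.

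Estimated counts, as deposited in whole numbers, were fitted with edgeR 4.0.16 in R 4.3.3 (TMM, 4 group means over all 8 libraries, glmQLFTest) for genes or transcripts with a mean of at least 0.5 FPKM. P-values were adjusted by Benjamini-Hochberg over all features tested, and called under 0.05. Standard errors are the log2 fold change over the root of the F statistic, and 95% intervals use the fit's degrees of freedom. DESeq2 1.42.0, limma 3.58.1 on log2(FPKM + 1), log2(FPKM + 0.1) or log2(TPM + 1), other filters and scalings, counts divided by 4, a replicate block and each library left out were the alternatives. Limma fold changes are on the log2(value + pseudocount) scale, which understates low genes. The scripts were tested on simulated data. The Utrn to Dmd ratio used an exact two-sided permutation test in SciPy 1.17.1. Promoter sequences are RefSeq's, and windows with exon bases were left out.

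All 8 members were named, with the partner genes, the 6 called genes of smallest p in each other list, the 3 genes with the highest r, and up to 4 transcripts of each member with at least 10% of its FPKM in a group mean. Transcripts ENSMUST00000080435, ENSMUST00000171412 and ENSMUST00000139855 and the genes Rxylt1 and Pomt1 were added after their values were seen. Some genes of the lists are not reported here. The members and lists were chosen with earlier results of these data known.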

Additional observations from a re-analysis of the deposited data

How the results depend on the processing

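For infarction against sham with both genotypes, 6 of 8 members were called under DESeq2, RLE scaling, no filter, counts divided by 4, removal of mitochondrially encoded genes and the replicate block, 7 as FPKM with either pseudocount (7864 and 7954 of all 14028 genes called) and 8 as TPM (11033 genes), against 5663 genes in the reported fit. With a filter of 5 FPKM only 5 members remained to be tested, because Dmd, Sgcd and Dtna are below that level. Of these 3 were called with both genotypes, beside 2906 of all genes. In fl/fl hearts 2 were called, beside 1602 genes, and in CKO hearts 3, beside 2105 genes. Leaving out 1 library at a time gave 5 to 6. Within fl/fl hearts TPM called 8 members and 9404 genes, against 2596 genes in the reported fit, a fit of only the 4 libraries called 0, and leaving out 1 library gave 0 to 5 (0 without fl/fl-Sham 1 or 2). Within CKO hearts leaving out 1 library gave 0 to 6 (0 without CKO-Sham 1). For CKO-MI against fl/fl-MI it gave 0 to 1 (1 without fl/fl-MI 1). For transcripts limma on FPKM called 14 of 18 and 8081 of all 26966, against 4547 in the reported fit, and leaving out 1 library gave 5 to 8. The Utrn to Dmd log2 ratio from the gene table ran from -1.37 to -0.96 when 1 library was left out, where the exact test cannot reach the threshold. Under the replicate block it was -1.11 with p = 0.125 by exact permutation, the smallest that 4 differences allow. With FPKM summed over transcripts the ratio was not tested, and sham and MI libraries overlapped.

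As TPM, where the median gene moved by 0.92, the log2 fold changes of Sgca (0.81), Sntb1 (0.50), Cav3 (0.58), Dtnbp1 (0.55), Krt19 (0.83), Hspg2 (0.69) and Dysf (0.40) in both genotypes, of Sgca in fl/fl (0.65) and of Utrn and Sgca in CKO hearts (0.97 and 0.98) turned positive. As FPKM, Cav3 (0.026 with a pseudocount of 1 and 0.0276 with 0.1), Dtnbp1 (0.00867 and 0.00832) and Hspg2 (0.13 with either) lost their call and their sign. The share of higher calls among all genes called was 54.6% with TMM, 89.4% as FPKM + 1, 89.6% as FPKM + 0.1 and 97.5% as TPM.

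Correlations of same-numbered deviations ran from -0.14 to 0.06 over the 6 pairs of groups and showed no sign of pairing by replicate number. With 2 libraries a group they cannot exclude a shared batch. The block moved the count of all genes called from 5663 to 5085, and of transcripts from 4547 to 2465. With replicate numbers crossed between CKO-MI and fl/fl-MI, an alternative chosen after seeing the data, 0 members and 0 genes were called. The block turned no other member gene's call than those of Dtna in fl/fl and Sgcb in CKO hearts. The fewest counts behind a member were 259 to 311, for Sgcd in sham libraries.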

Other observations

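Beside the complex lies the costamere, the set of proteins that couples the membrane to the sarcomere, with its membrane repair proteins. Of 13 such genes, 9 were higher after infarction with both genotypes and 1 lower by edgeR, where 40.4% of all genes were called, and the median log2 fold change was 0.72. Flnc, filamin C, rose from 55.9 to 90.5 CPM in sham to 267 to 653 CPM in MI libraries (2.41 ± 0.24, edgeR adjusted p = 0.000887), more than any of the 8 complex genes. Vcl, vinculin, rose from 39.7 to 48.4 CPM to 115 to 149 CPM (1.49 ± 0.11). Ank3, an ankyrin (1.08 ± 0.12), Trim72, which seals membrane tears (0.89 ± 0.12), and Itgb1, the beta-1 integrin (0.82 ± 0.13), were higher as well. Dysf, dysferlin, another repair protein, was at 95.2 to 116 CPM in sham and 50.2 to 81.0 CPM in MI libraries (-0.71 ± 0.11), so the repair genes Trim72 and Dysf moved in opposite directions on the TMM scale. As TPM Dysf was at 0.40.

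Between CKO-MI and fl/fl-MI no gene of this list was called. Trim72 was at 0.63 and Dysf at 0.46, the 2 genes of the list that passed an unadjusted 0.05 by edgeR, where 8.31% of all genes did.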
